A study of Mus musculus with 8 samples.

Results

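The KLF genes whose proteins bind the corepressor SIN3 are Klf9, Klf10, Klf11, Klf13, Klf14 and Klf16, and their peaks were taken as the rows of a KLF13 peak list that carry one of these 6 gene symbols. They held 9 of the 9506 peaks in the list, and each of the 6 genes had at least 1. The list came from HT22, a line of mouse hippocampal neurons, and compares 4 KLF13 ChSP libraries with 4 input libraries. All 8 came from HT22-BirA cells, which stably make the biotin ligase BirA, transfected with the plasmid pTO-Klf13Bio so that they make KLF13 in a form that BirA biotinylates. Chromatin was taken 24 h after transfection, with 1% paraformaldehyde and 20 min of sonication for all 8 libraries. In the ChSP libraries it was precipitated on streptavidin (chromatin streptavidin precipitation), and the input libraries had no precipitation. The list, which is the authors' deposited table, gives one fold of ChSP over input, one p-value and one adjusted p-value per peak over all 8 libraries, all computed by the authors. No value per library, read depth or replicate error is known, so differences in fold between genes are descriptions that could not be tested. A pulldown from cells without tagged KLF13 was not analysed here, so capture of chromatin on streptavidin without KLF13 cannot be told apart from KLF13 binding, and the tagged protein came from a transfected plasmid.

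Krüppel-like factors bind GC-rich DNA and CACCC elements through zinc fingers at their C-terminal end. The subgroup described here carries in its N-terminal part a short helix that docks on SIN3, a scaffold for histone deacetylases, and most of its members are known as repressors at many of their targets. Klf9 and Klf13 encode closely related proteins. Klf9 is induced by thyroid hormone and glucocorticoids in neurons. Klf10 and Klf11 were first described as genes induced by TGF-beta. The comparison asks whether peaks of KLF13 lie at the genes of its own subgroup, and how strong they are there.

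The promoter sequence of 3 members shows what lay at or beside the peaks. The windows below are from RefSeq on GRCm38.p6, run 5′ to 3′ on the strand of the gene, and hold 250 bases before the transcription start site (TSS) and 50 bases from it onward, with the TSS as base 251. Capitals mark GGGCGG, the GC box, or CACCC, on either strand, and overlapping matches run together. Klf13 lies at chr7:63938866-63939165 on the minus strand, Klf11 at chr12:24651121-24651420 on the plus strand and Klf9 at chr19:23140976-23141275 on the plus strand.
Klf13: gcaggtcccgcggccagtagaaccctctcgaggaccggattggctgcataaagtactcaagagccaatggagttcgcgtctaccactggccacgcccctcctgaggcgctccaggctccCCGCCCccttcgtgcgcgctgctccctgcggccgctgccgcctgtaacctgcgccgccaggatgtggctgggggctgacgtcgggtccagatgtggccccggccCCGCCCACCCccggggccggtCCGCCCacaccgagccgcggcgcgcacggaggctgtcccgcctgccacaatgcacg
Klf11: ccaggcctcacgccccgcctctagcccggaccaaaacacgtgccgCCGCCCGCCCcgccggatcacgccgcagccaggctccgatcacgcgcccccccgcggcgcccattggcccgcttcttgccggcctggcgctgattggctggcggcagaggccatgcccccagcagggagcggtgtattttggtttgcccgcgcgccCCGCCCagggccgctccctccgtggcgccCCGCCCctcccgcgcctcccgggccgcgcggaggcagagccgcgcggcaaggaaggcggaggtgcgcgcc
Klf9: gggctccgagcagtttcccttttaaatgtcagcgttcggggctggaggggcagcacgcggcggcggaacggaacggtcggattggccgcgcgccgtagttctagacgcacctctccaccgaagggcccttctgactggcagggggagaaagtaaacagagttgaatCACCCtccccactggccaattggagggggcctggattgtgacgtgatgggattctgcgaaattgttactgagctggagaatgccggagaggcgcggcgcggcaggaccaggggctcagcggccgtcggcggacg

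The peaks of Klf13 and Klf11 covered all 300 bases of their windows, while the main Klf9 peak covered the last 75. GGGCGG occurred 3 times in the Klf13 window, the nearest match ending 1 base before the TSS, and 4 times in the Klf11 window, with 2 of the matches overlapping. The Klf9 window had 0 matches to GGGCGG and 1 to CACCC, at 84 to 80 bases before the TSS. This match lies upstream of the called edge of the peak, 25 bp before the TSS. Chromatin was sheared to 200 to 600 bp and peak widths come in steps of 100 bp. The list therefore cannot tell whether the match lies outside the bound stretch. The Klf13 window also had 1 match to CACCC, and the Klf11 window had 0. The longer GC box GGGGCGGGG occurred once each in the Klf13 and Klf11 windows and 0 times in that of Klf9. The degenerate pattern CCNCNCCC occurred 5 times each in the Klf13 and Klf11 windows and 0 times in that of Klf9. Over 32841 promoter windows of this length, 35.7% held GGGCGG, 11.4% GGGGCGGGG, 57.5% CACCC and 49.5% CCNCNCCC, each on either strand. Among the 6510 windows that overlapped a peak the shares were 82.4%, 32.9%, 67.6% and 83.8%. GC content was 72.0% in the Klf13 window, 77.7% in the Klf11 window and 63.3% in the Klf9 window, with 32, 42 and 28 CpG sites, beside medians of 52.7% and 7 CpG sites over all windows and of 68.7% and 29 over windows that overlapped a peak. The Klf9 window was thus GC-rich beside all windows without a GC box of these letters.

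All 6 genes had a promoter peak, meaning a peak within 1 kb of a TSS, and each had a peak that overlapped the TSS. Of 21900 protein-coding genes 30.9% had a promoter peak and 25.8% had one over the TSS. Counting any peak over the gene bounds extended by 1 kb, all 6 members and 37.0% of protein-coding genes had one. The highest promoter fold per gene had a median of 35.9 over the 6 genes, with a range of 5.70 to 57.7, beside a median of 22.8 over the 7040 genes with a promoter peak. The order by fold was Klf16, Klf10, Klf11, Klf9, Klf14 and Klf13, so that 4 members lay above that median and 2 below. Without replicate values it is not known whether neighbours in this order differ beyond error. Klf9 and Klf10 had 2 promoter peaks each, the second at Klf9 beginning 975 bp into the gene. At least 2 were found at 504 of the 6769 protein-coding genes with a promoter peak, which is 2.3% of all protein-coding genes.

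**Figure D1:**
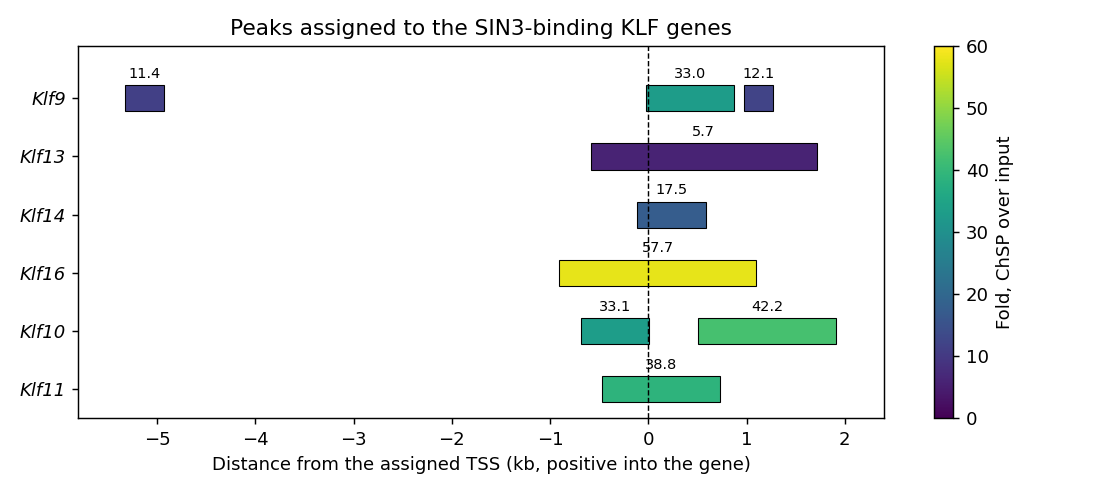
Each bar is a peak assigned to 1 of the 6 genes, placed by its distance from the TSS in kb (negative upstream, positive into the gene), with its fold of ChSP over input printed above it and given by the colour. A peak crosses the TSS in all 6 genes, the wide Klf13 peak has the lowest fold of 5.70, and the wide Klf16 peak has the highest of 57.7.

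Klf9 (ENSMUSG00000033863) had 3 peaks. The main one had a fold of 33.0 and was 900 bp wide, at chromosome 19, 23141201 to 23142100 (the authors' p = 4.67e-19, adjusted p = 1.05e-15). It began 25 bp before the TSS and reached 874 bp into the gene, so nearly all of it lay downstream of the start. Its fold was higher than that of 80.3% of the 7599 promoter peaks. A second peak of 300 bp followed after a gap of 100 bp, at 23142201 to 23142500, with a fold of 12.1 (the authors' p = 5.02e-07). It began 975 bp into the gene, just inside the 1 kb limit. The third, 400 bp wide, was intergenic at 4.93 kb upstream of the TSS, at 23135901 to 23136300, with a fold of 11.4 (the authors' p = 2.87e-07). The flanking pair had lower folds than the main peak, higher than those of only 9.01% and 7.32% of promoter peaks.

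Klf13 (ENSMUSG00000052040), which encodes the tagged factor itself, had 1 assigned peak, at chromosome 7, 63937201 to 63939500. Its fold was 5.70 (the authors' p = 6.07e-36, adjusted p = 1.62e-30). The peak was 2300 bp wide and ran from 585 bp before the TSS to 1714 bp into the gene. Fold and p-value ranked it at opposite ends of the list: its p was the 13th smallest of the 7599 promoter peaks, and its fold the 9th lowest. The 8 promoter peaks with a lower fold were 200 to 600 bp wide, and their p-values lay between 1.31e-12 and 9.05e-06. Of these 8, 4 lay on chromosome X. The 12 other promoter peaks with a p at or below that of Klf13 had folds of 7.85 to 57.7, and 5 of them lay on chromosome X. The share of all promoter peaks on chromosome X is not given here, so these counts have no background. The 16 other promoter peaks at least 2300 bp wide had folds of 23.5 to 46.0. No other promoter peak as wide or with as small a p had so low a fold.

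Which peak over a TSS was most like that of Klf13 depended on the scale. Peaks without a gene symbol, or with the Gm or Rik symbol of an unnamed gene model, were left out of the log ranking. By log2 fold, negative log10 p and log2 width, the nearest peak of a named gene was that of Ap1s2. Ap1s2 is an adaptor protein subunit gene on chromosome X, and its peak had a fold of 7.85, a width of 1200 bp and a p of 9.5e-37. Its distance on these log scales was 1.53, with each measure divided by its standard deviation over promoter peaks. The next were Nhs, Tle1, Gpm6b and Dennd4c, with folds of 15.8 to 23.5 at distances of 3.15 to 3.45. Nhs and Gpm6b are also on chromosome X, and Tle1 and Dennd4c are on chromosome 4. On X the peaks of Nhs, Ap1s2 and Gpm6b start at 162158801, 163908601 and 166238601. Whether low fold with small p is a trait of this region was not tested. With fold and width left on a linear scale, a setting chosen after seeing the data, the nearest was instead Ppp3ca, a calcineurin subunit gene, with a fold of 23.9 and a width of 2100 bp at a distance of 2.24, and Ap1s2 was not among the 5 nearest.

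A further peak lay inside Klf13, at 63891201 to 63892100, 46.8 to 47.7 kb downstream of the TSS in a gene of 52.6 kb. Its fold was 4.19 (the authors' p = 1e-11), and 51 of the 1907 peaks beyond 1 kb from a TSS had a lower fold. It is annotated as 3′ UTR and carries the symbol of E030018B13Rik, a gene model whose TSS is 24.8 kb away, so it is not among the 9 peaks. Its p was larger than the median of 5.3e-12 over all peaks and smaller than the median of 6.37e-09 over the peaks beyond 1 kb. Both peaks that overlap the gene bounds of Klf13 thus had low folds, and the promoter peak alone had one of the smallest p-values. Klf13 sequence is also on the transfected plasmid, which ChSP and input cells both received. The part of plasmid DNA in the reads of either peak was not tested, and without Klf13 the median fold of the remaining members was 38.8.

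**Figure D2:**
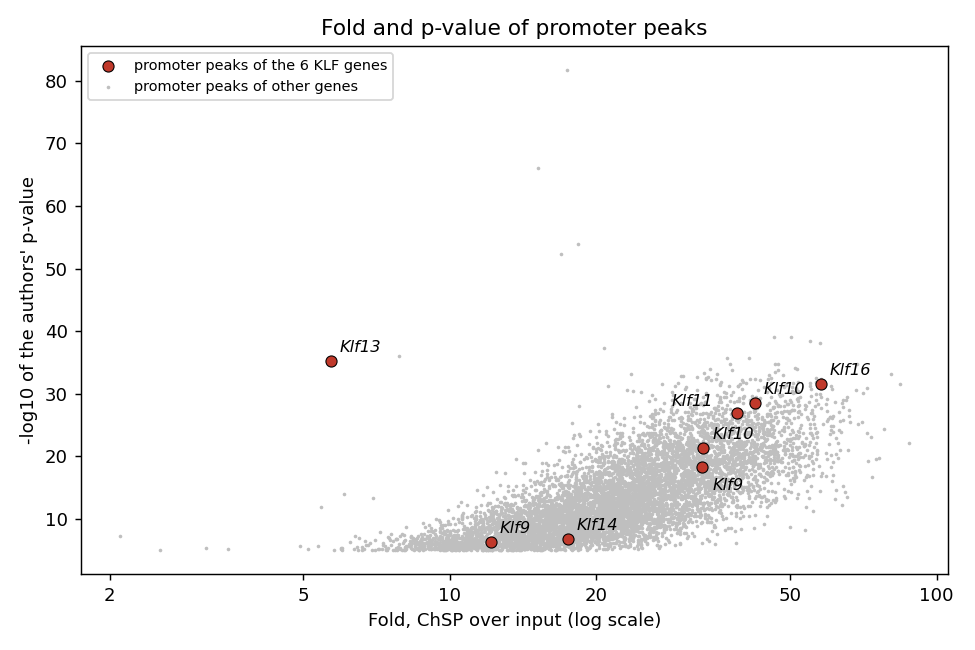
Each point is a promoter peak, with its fold of ChSP over input on a log axis and the negative log10 of the authors' p-value on the vertical axis, in red for the 6 KLF genes and grey for other genes. Klf13 lies apart at a fold of 5.70 with a p of 6.07e-36. Klf16 lies toward the upper end of the fold axis, with a p of 2.47e-32, and the remaining red points lie in the main cloud. The vertical axis extends to the Rbbp7 peak, with a p of 1.79e-82.

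Klf14 (ENSMUSG00000073209), an intronless gene expressed from the maternal allele, had 1 peak, at chromosome 6, 30958401 to 30959100, whose fold was 17.5 (the authors' p = 1.4e-07, adjusted p = 4.4e-05). It was 700 bp wide and ran from 110 bp before to 589 bp after the TSS. Its p was smaller than that of 13.6% of promoter peaks and its fold higher than that of 29.1%. Among the 4753 peaks with the smallest p it was absent, and Klf14 was the only member without a promoter peak there.

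Klf16 (ENSMUSG00000035397), described in mouse as a regulator of dopamine receptor genes, had 1 peak, at chromosome 10, 80576201 to 80578200, whose fold was 57.7 (the authors' p = 2.47e-32, adjusted p = 2.59e-27). The peak was 2000 bp wide and lay about evenly around the TSS, from 904 bp before it to 1095 bp after. Its fold was the 74th highest of the promoter peaks. The 39 promoter peaks at least as wide, leaving out Klf13, had folds of 18.1 to 60.7 with a median of 33.6. Klf16 and Klf13 thus had the widest peaks of the 6 genes and the highest and lowest folds.

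Klf10 and Klf11 encode the pair known as TGF-beta inducible early genes. Klf10 (ENSMUSG00000037465) had its stronger peak inside the gene, at chromosome 15, 38298801 to 38300200, where the fold was 42.2 (the authors' p = 2.53e-29, adjusted p = 1.05e-24). This peak was 1400 bp wide and lay 511 to 1910 bp downstream of the TSS. The other, with a fold of 33.1 at 38300701 to 38301400 (the authors' p = 5.36e-22), was 700 bp wide and reached from 689 bp before the TSS to 10 bp after it. The pair left a gap of 500 bp just inside the gene with no called peak. Klf11 (ENSMUSG00000020653) had 1 peak of 1200 bp, at chromosome 12, 24650901 to 24652100, whose fold was 38.8 (the authors' p = 1.08e-27, adjusted p = 2.64e-23). It ran from 470 bp before the TSS to 729 bp after it. The folds of the stronger Klf10 peak and of the Klf11 peak were higher than those of 92.4% and 89.1% of promoter peaks.

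Because the peaks differed in width, each highest fold was also set beside those of promoter peaks within 200 bp of the same width. Klf16 was higher than 96.3% of 82 such peaks, Klf10 than 78.6% of 709, Klf11 than 73.1% of 1489, Klf9 than 70.5% of 3348 and Klf14 than 22.7% of 4378. Klf13 was the lowest beside 26 peaks of like width, itself included. The order of the members was unchanged by this step.

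The other genes of the family and of the SIN3 pathway were described in the same way, by the share with a promoter peak beside the 30.9% of all protein-coding genes. Of 11 other KLF genes 7 had one (63.6%), with a median fold of 26.6 and a range of 10.7 at Klf7 to 45.2 at Klf4, a pluripotency factor. Of 9 Sp genes, which encode GC box factors related to the KLF proteins, 7 had one (77.8%), with a median of 22.4 and a range of 19.0 at Sp9 to 52.1 at Sp1. The highest fold of all 3 family lists was at Klf16.

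Among 23 genes for SIN3 and its partner proteins 14 had a promoter peak (60.9%), with a median fold of 25.2. The 5 highest folds were 52.7 at Ing1, a reader of methylated histone H3, 31.8 at Sap30l, 30.5 at Arid4b, 29.2 at Suds3 and 28.7 at Arid4a. No promoter peak was assigned to Sin3b, Sap18, Sap25, Sap130, Rbbp4, Brms1, Sinhcaf, Morf4l1 or Kdm5a. The core genes were named after their values were seen. Sin3a, the scaffold that the KLF helix docks on, had a fold of 28.3 at its highest promoter peak, and the deacetylase genes Hdac2 and Hdac1 had 21.1 and 9.21. Rbbp7, a histone-binding subunit on chromosome X, had a fold of 17.4 with a p of 1.79e-82, the smallest of any promoter peak. This peak starts at 162759601, between those of Nhs and Ap1s2 named above. Distal peaks assigned to Rbbp7 had low folds of 3.38 to 4.94. The MXD, MXI1 and MNT proteins are repressors that bind MAX and reach SIN3 through a helix of the same kind. All 5 of their genes examined (Mnt, Mxi1, Mxd4, Mxd1 and Mxd3) had a promoter peak, with folds of 38.4 at Mnt, 38.1 at Mxi1, 34.8 at Mxd4, 27.6 at Mxd1 and 24.6 at Mxd3. These values spanned a narrower range than those of the 6 KLF genes, whose low end was Klf13, a gene with sequence also on the plasmid. Without Klf13 the KLF folds ran from 17.5 to 57.7, still the wider range.

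**Figure D3:**
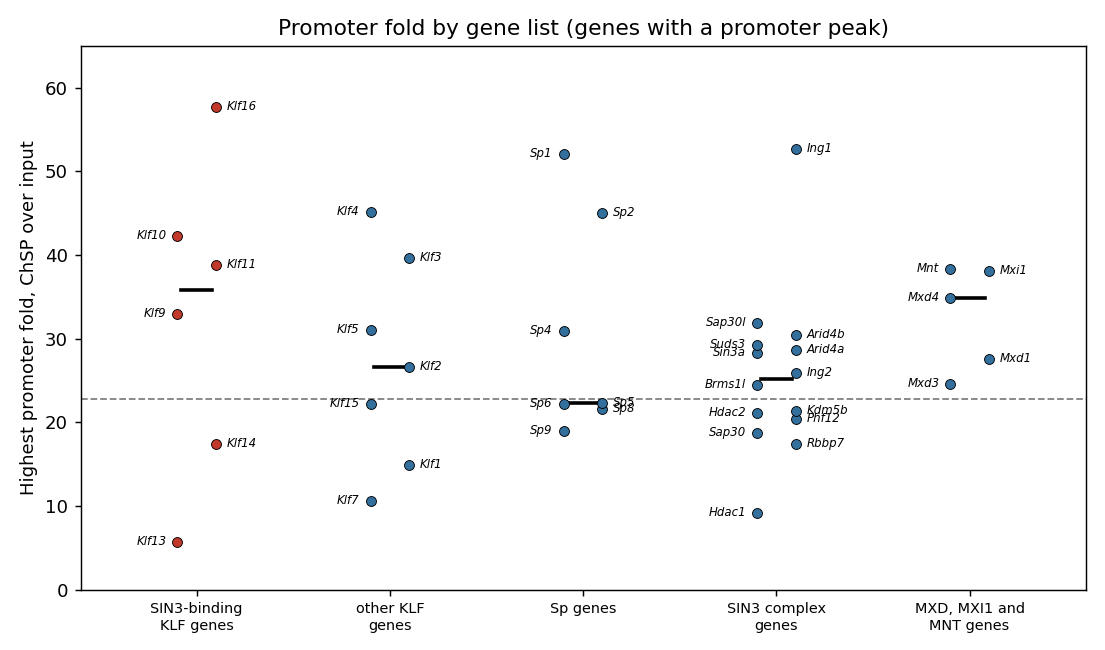
Each point is the highest promoter fold of ChSP over input of a gene with a promoter peak, by gene list, with the median of each list as a black bar and the median of 22.8 over all 7040 genes with a promoter peak as a dashed line. The SIN3-binding KLF genes span 5.70 to 57.7, or 17.5 to 57.7 without Klf13. The MXD, MXI1 and MNT genes all lie between 24.6 and 38.4.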

How the data were processed

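The data were 1 peak list over 4 KLF13 ChSP and 4 input libraries, on GRCm38 per the submitters' processing notes. These notes name HOMER 4.9.1, ChIPseeker 1.16.1, BWA 0.7.17-r1188 and FastQC 0.11.3, with no roles. The file name points to PePr as the caller. The caller's settings and how libraries were scaled are not given in the sources used. Fold is the authors' linear ratio of ChSP over input, p-value and adjusted p-value are as deposited, and the score in the list, a fixed multiple of fold, was not used. Every p was at or below 9.99e-06. Widths and distances come in the authors' annotation, widths in steps of 100 bp. Depth is unknown.

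Members were matched by the deposited gene symbol, other genes by gene identifier to a RefSeq table on GRCm38.p6. Each peak is assigned to 1 gene. Promoter sequence was matched by symbol and found for 3 members. Members, gene lists and settings were chosen with earlier results of these data known. All members are named. From the lists the highest and lowest family genes, the 5 highest SIN3 partners, and those without a promoter peak are named. No test was run, because each peak has a single value. The rank, promoter and motif steps were tested on simulated data. Alternatives were other promoter distances, the peaks with the smallest p, no widest peaks, gene bounds, the peak nearest to the TSS, no Klf13, rank by p, peaks of like width, other motifs and, for the peaks most like that of Klf13, linear fold and width. Python 3.11.15, pandas 2.3.3, numpy 2.4.6 and matplotlib 3.10.9 were used.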

Additional observations from a re-analysis of the deposited data

How the results depend on the processing

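No paired analysis was possible because each peak has a single value computed from all 8 libraries together, so no library could be left out either. All 6 genes had a promoter peak within 3 kb of a TSS, with any assigned peak, and with peaks over the gene bounds extended by 1 kb. The count was 5 when only the 4753 peaks with smaller p were kept, where 18.6% of protein-coding genes had one, and 4 without the 5% widest peaks, where 29.3% had one and Klf13 and Klf16 had none. The median fold of 35.9 became 33.1 with the peak nearest to the TSS, and 38.8 both without Klf13 and with those 4753 peaks. The median percentile among promoter peaks was 84.7 by fold, 97.2 by p and 71.8 by fold among peaks of like width. GGGCGG, GGGGCGGGG and CACCC each occurred in 2 of the 3 windows.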

Other observations

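Around the members, within 100 kb of the TSS, other called peaks ranged from 0 to 8. Klf9 and Klf10 had 0 peaks assigned to other genes there. Klf16 had 8. Of the other protein-coding genes that reach into these 100 kb, a promoter peak was assigned to 1 of 1 at Klf9, 0 of 1 at Klf13, 1 of 2 at Klf14, 6 of 9 at Klf16, 0 of 1 at Klf10 and 3 of 4 at Klf11, beside 30.9% of all protein-coding genes. The promoter peak of the Klf9 neighbour lay outside the 100 kb. The nearest peaks to Klf16 were those of Abhd17a, a depalmitoylase gene, with folds of 17.4 and 32.1 at 9.55 and 13.0 kb from the Klf16 TSS, and of Atp8b3 with 15.9 at 38.2 kb. The fold of 57.7 at Klf16 itself was above all 8, of which the highest was 42.2 at Btbd2. Klf11, with a fold of 38.8, had 3 such peaks, with lower folds of 23.1 at Cys1, 11.3 at Rrm2 and 25.8 at Grhl1. Klf14, with a fold of 17.5, had 1, over the TSS of Copg2 at 62.3 kb, with a higher fold of 52.4.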
